A study of Mus musculus with 12 samples.

Results

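The Hox genes of the 4 clusters Hoxa, Hoxb, Hoxc and Hoxd were taken as every gene line whose symbol is Hox, a cluster letter from a to d and a number. There were 38 such genes among 39174 gene identifiers, with 11 in Hoxa, 10 in Hoxb, 9 in Hoxc and 8 in Hoxd. Hoxd4 was not analysed here, as no line carries that symbol. The libraries came from primary motoneuron cultures of FVB mice, 3 in each of 4 groups: Smn-/-;SMN2 cultures with 0.5 µM R-Roscovitine, Smn-/-;SMN2 cultures left untreated, Smn+/+;SMN2 cultures with 0.5 µM R-Roscovitine and Smn+/+;SMN2 cultures left untreated. The Smn-/-;SMN2 genotype, which lacks mouse Smn and models spinal muscular atrophy, is called SMA here, and Smn+/+;SMN2 is called control. All 4 groups carry the human SMN2 transgene, whose transcripts mostly lack an exon and give little full-length SMN protein. R-Roscovitine is a purine inhibitor of cyclin-dependent kinases that also acts on voltage-gated calcium channels. The labels do not say whether libraries came from separate embryos, so p-values measure the spread between libraries, which may be technical.

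Hox genes encode homeodomain transcription factors, and the order of the genes along each cluster matches the order of the body regions in which they are used. Low-numbered paralogue groups act in the hindbrain, middle groups in the cervical, brachial and thoracic spinal cord, and high-numbered groups in the lumbar and sacral cord. In motoneurons the combination of Hox proteins, bound to DNA with TALE cofactors of the Pbx and Meis families, sets the column and the muscle pool to which a cell belongs. A Hox profile therefore reads out the level of the cord from which cells were taken as well as their identity. The cited culture protocol is written for the embryonic lumbar cord, and the labels give no level for these cultures.

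Levels are in FPKM, fragments normalised for transcript length and library depth, so that genes of different length can be set side by side. Each library held between 14463 and 14581 genes at 1 FPKM or more. The smallest steps between low values give an estimated depth of 19.5 to 28.7 M reads per library, with 29.4% to 31.7% of low values in short genes within 0.01 of a whole number of steps. Smn1, the targeted gene, was at 5.04 to 8.58 FPKM in SMA libraries and 30.9 to 51.2 FPKM in control libraries. The defining motoneuron markers Chat, Mnx1, Isl1, Isl2, Lhx3, Lhx4 and Slc5a7 were below 1 FPKM in every library, so that these markers of the labelled cell type were nearly absent. With the other motoneuron genes of a list of 22, of which 21 had a line and 14 were tested, they summed to 81.4 to 110.7 FPKM in SMA libraries and 106.3 to 142.2 FPKM in control libraries. Markers of neural progenitors and astroglia summed to 495.0 to 1259 FPKM in SMA libraries and 391.9 to 524.7 FPKM in control libraries. Markers of neurons of any kind summed to 748.9 to 1086 FPKM in SMA libraries and 894.7 to 1405 FPKM in control libraries. In such bulk samples, fewer cells of a type and less RNA per cell cannot be told apart.

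The profile along the clusters peaked at paralogue groups 8 and 9 and fell below 1 FPKM beyond group 11. Summed over the clusters, group 8 was at 336.0 ± 20.01 FPKM and group 9 at 217.7 ± 43.8 FPKM (SD, n = 12 libraries). Groups 5, 6 and 7 followed at 61.2 ± 5.13, 85.8 ± 5.89 and 74.4 ± 12.9 FPKM, and group 10 was at 50.2 ± 15.4 FPKM. Group 11 was at 4.73 ± 4.80 FPKM, a standard deviation as large as its mean, and groups 12 and 13 were at no more than 0.274 and 0.250 FPKM in any library. All Hox genes together summed to 796.7 to 1000.2 FPKM, and 26 to 30 of the 38 were at 1 FPKM or more in a library.

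**Figure D1:**
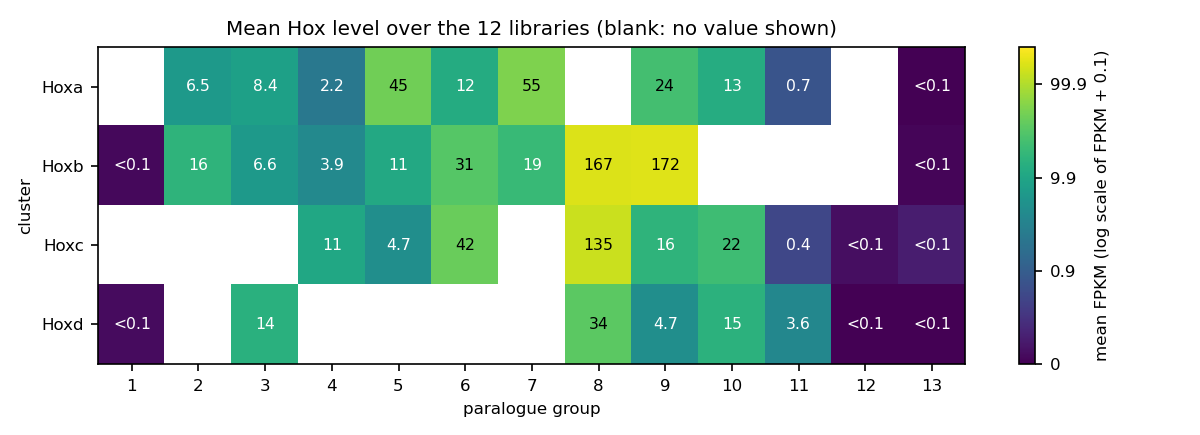
Mean FPKM of Hox genes over the 12 libraries, by cluster (rows) and paralogue group (columns), with color on a log scale of FPKM + 0.1 and blank cells where no value is shown. Hoxb9, Hoxb8 and Hoxc8 stand highest at 172, 167 and 135 FPKM, and values in groups 12 and 13 are below 0.1 FPKM.

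Hoxb9, Hoxb8 and Hoxc8 were the most abundant members. Hoxb9, a group 9 gene of the thoracic and lumbar cord, was at 172 ± 40.5 FPKM, Hoxb8 at 167 ± 40.9 FPKM and Hoxc8, which patterns brachial motor pools, at 135 ± 23.6 FPKM (SD, n = 12 libraries). Hoxb9 was above Hoxb8 in 7 of 12 libraries and Hoxb8 above Hoxc8 in 8 of 12, so the order of these genes is not fixed across libraries. Hoxc8 was above the next member, Hoxa7, in 12 of 12 libraries and their ranges did not overlap. Hoxa7 led the Hoxa cluster at 55.2 ± 12.3 FPKM, and Hoxd8 led Hoxd at 34.4 ± 3.4 FPKM.

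In the other members the ranges of neighbours in the order overlapped. Hoxa5, which with Hoxc5 is needed for phrenic motoneurons, was at 45.4 ± 5.69 FPKM, and Hoxc5 was at 4.72 ± 1.23 FPKM. Hoxc6 and Hoxc9, which oppose each other at the border between limb and thoracic motor columns, were at 42.1 ± 6.42 and 16.4 ± 1.26 FPKM. Among the hindbrain genes, Hoxb2, which acts in the rhombomere where facial motoneurons arise, was at 16 ± 3.84 FPKM and Hoxa2 at 6.51 ± 1.52 FPKM (SD, n = 12 libraries each). Hoxc4 and Hoxc9 varied least, with a coefficient of variation of 7.40% and 7.72%, and of the members at 1 FPKM or more in at least 3 libraries Hoxc11 and Hoxd11 varied most, at 143% and 106%.

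Of the 38 genes, 30 reached 1 FPKM in at least 3 of 12 libraries and were tested. The other 8 were below 1 FPKM in every library. Hoxa13 and Hoxd12 were listed at 0 in all 12 libraries, and the highest value of Hoxb1, Hoxb13, Hoxc12, Hoxc13, Hoxd1 or Hoxd13 was 0.274 FPKM, in Hoxc12. Group 13 genes act at the tail end of the body axis and in the outer limb, and Hoxb1 in a single hindbrain segment. In every library the highest group at 1 FPKM or more was 9 in Hoxb and 10 or 11 in each of Hoxa, Hoxc and Hoxd.

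Hoxd11 and Hoxd10, genes of the lumbar level, differed between cultures of 1 genotype by more than the treated and untreated library with the same number did. Libraries carry a replicate number from 1 to 3 in their labels, and the treated and untreated library of the same genotype and number are called a pair. Over the 30 tested Hox genes, the deviations of paired libraries from their group means correlated at 0.55 to 0.92, as a description over genes that are not independent. The same correlation was 0.24 to 0.59 over all 15012 tested genes, so the numbers were read as pairing treated and untreated cultures within a genotype. Same-numbered libraries of the 2 genotypes correlated at -0.68 to 0.32 over the Hox genes and were not paired. Other libraries of the 2 genotypes, which differed in number, treatment or both, correlated at -0.77 to 0.82 over the Hox genes. Over all tested genes these correlated at -0.30 to 0.32, so a high correlation was not particular to pairs.

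Hoxd11, a lumbosacral gene of the Hoxd cluster on chromosome 2 (chr2:74679392-74694194, plus strand, GRCm38, ENSMUSG00000042499), showed the widest range. It was at 0.0723, 9.74 and 1.696 FPKM in treated SMA libraries 1, 2 and 3, and at 4.84e-08, 7.66 and 1.15 FPKM in untreated SMA libraries 1, 2 and 3. In control libraries 1, 2 and 3 it was at 8.96, 2.82 and 0.672 FPKM with R-Roscovitine and at 8.46, 1.95 and 0.455 FPKM untreated. SMA pair 2 and control pair 1 were high, SMA pair 1 was near 0, and the genotypes overlapped.

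Hoxd10, its lumbar neighbour (chr2:74691090-74695106, plus strand, ENSMUSG00000050368), was at 7.89, 17.8 and 13.2 FPKM in treated and 5.17, 14 and 13.4 FPKM in untreated SMA libraries 1, 2 and 3. In control libraries it was at 26.8, 18.4 and 13.4 FPKM with R-Roscovitine and 26, 18 and 10.4 FPKM untreated. Control pair 1 was highest and SMA pair 1 lowest, in treated and untreated cultures alike. The listed locus of Hoxd11 overlaps that of Hoxd10, so reads in the shared stretch cannot be told apart with certainty. The promoters of these neighbours, which varied together, are shown from RefSeq on GRCm38.p6, from 250 bases before to 50 bases after the start site. Capitals mark the Cdx motif TTTATG, the Pbx-Hox motif TGATTNAT or the CCAAT box, each on either strand.
Hoxd11 promoter 1, chr2:74679308-74679607, plus strand, Cdx motif in capitals: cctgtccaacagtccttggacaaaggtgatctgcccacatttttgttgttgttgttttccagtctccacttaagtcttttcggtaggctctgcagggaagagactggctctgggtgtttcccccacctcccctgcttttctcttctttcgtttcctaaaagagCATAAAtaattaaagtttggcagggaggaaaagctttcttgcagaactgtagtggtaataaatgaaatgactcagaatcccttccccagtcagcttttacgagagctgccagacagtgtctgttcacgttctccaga
Hoxd11 promoter 2, chr2:74682073-74682372, plus strand, Pbx-Hox motif in capitals: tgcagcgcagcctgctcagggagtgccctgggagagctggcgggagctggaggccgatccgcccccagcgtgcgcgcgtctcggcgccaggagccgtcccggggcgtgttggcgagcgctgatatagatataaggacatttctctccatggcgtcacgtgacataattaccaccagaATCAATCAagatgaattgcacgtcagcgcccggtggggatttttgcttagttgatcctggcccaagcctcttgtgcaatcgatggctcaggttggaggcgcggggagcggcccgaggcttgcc
Hoxd10 promoter, chr2:74691641-74691940, plus strand, CCAAT box in capitals: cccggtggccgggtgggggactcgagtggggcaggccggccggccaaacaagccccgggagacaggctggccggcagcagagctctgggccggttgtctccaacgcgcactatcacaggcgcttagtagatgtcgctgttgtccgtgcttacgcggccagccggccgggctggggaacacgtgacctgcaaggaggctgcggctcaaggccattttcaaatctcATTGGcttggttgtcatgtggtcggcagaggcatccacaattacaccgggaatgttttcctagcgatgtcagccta

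The tables held promoters for 21 of the 38 genes, as 23 entries. The Cdx motif TTTATG stood in 4 of these 23 and in 11.8% of all 32851 promoters, and the Pbx-Hox motif TGATTNAT in 2 of 23 and in 3.22%. The CCAAT box stood in 14 of 23 and in 37.4% of all promoters, and the TATA box TATAAA in 3 of 23 and in 13.6%. The median number of CG dinucleotides was 15 in the Hox promoters and 7 in all promoters. Both strands were searched, the Cdx and TATA letters can overlap, and a match is a description and not a site. Cdx proteins set the posterior Hox code of the early embryo, and here Cdx1, Cdx2 and Cdx4 were at no more than 0.102 FPKM in any library.

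Hoxc10 and Hoxa10 were lowest in the same SMA pair. Hoxc10, which with Hoxd10 gives motoneurons their lumbar limb identity, was at 11.5, 25.4 and 21.2 FPKM in treated and 8, 21.8 and 20.1 FPKM in untreated SMA libraries 1, 2 and 3. Control libraries had 33.6, 25 and 26.9 FPKM with R-Roscovitine and 28, 22.6 and 22 FPKM untreated. Both libraries of SMA pair 1 were below the other 10 libraries.

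Hoxa10, also a lumbar gene, was at 7.61, 15.4 and 11.8 FPKM in treated and 7.86, 13.1 and 12.3 FPKM in untreated SMA libraries, against 13.8, 14.1 and 11.7 FPKM in treated and 17.8, 11.7 and 14.4 FPKM in untreated control libraries. Again both libraries of SMA pair 1 were lowest. Hoxc11 was at 0, 1.68 and 0.0253 FPKM in treated and 0, 1.17 and 0.0435 FPKM in untreated SMA libraries, against 1.28, 0.0594 and 0 FPKM in treated and 0.841, 0.104 and 0.0365 FPKM in untreated control libraries. Hoxa11, known for its part in the limb and kidney, was at 0.182, 1.29 and 0.5295 FPKM in treated and 0.17, 1.25 and 0.5997 FPKM in untreated SMA libraries, against 1.08, 0.616 and 0.184 FPKM in treated and 0.764, 0.414 and 0.7703 FPKM in untreated control libraries. Hoxa11 and Hoxc11 reached 1 FPKM in 3 libraries each, both of SMA pair 2 and the treated library of control pair 1, and so entered the test through their high libraries.

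**Figure D2:**
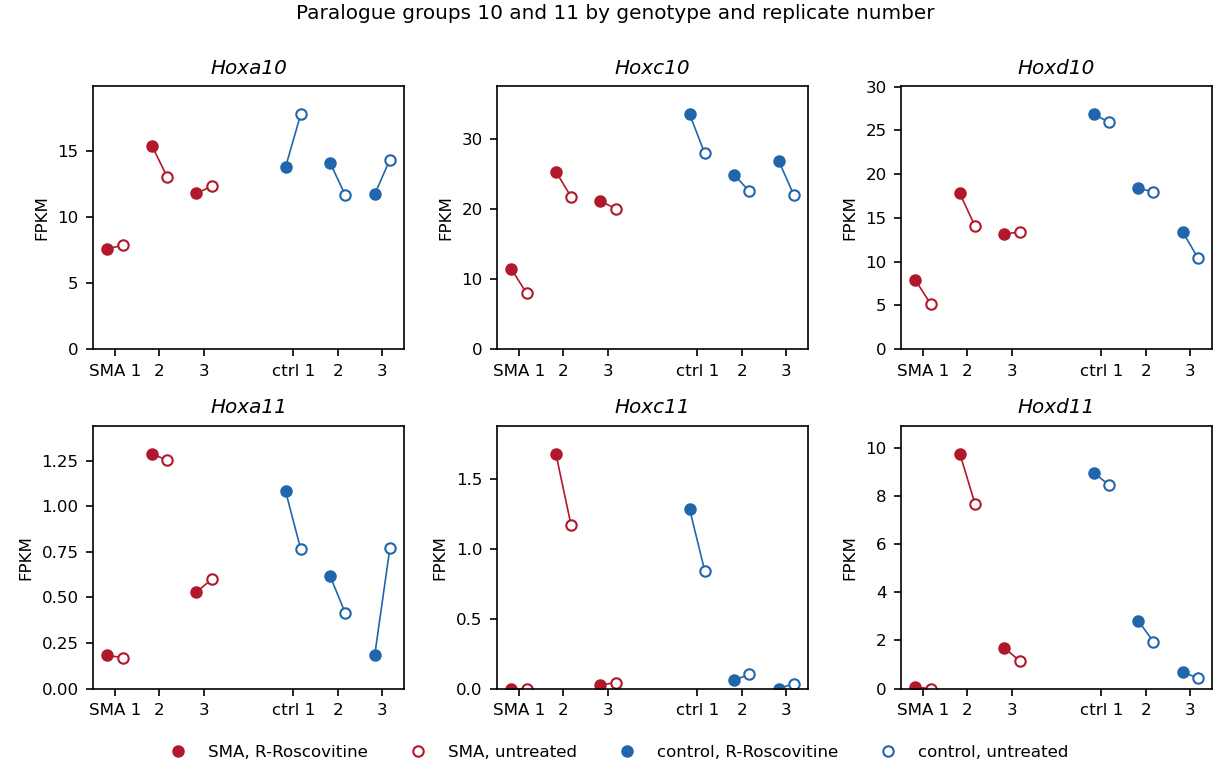
FPKM of the 6 genes of paralogue groups 10 and 11 in each library, by genotype and replicate number, with treated (filled) and untreated (open) libraries of a pair joined by a line. SMA pair 1 stands lowest for Hoxa10, Hoxc10 and Hoxd10, and SMA pair 2 and control pair 1 stand highest for Hoxc11 and Hoxd11.

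A limma F test of the pair within genotype, chosen after these values were seen, called 8 of 30 tested Hox genes at a Benjamini-Hochberg adjusted p under 0.05, against 7.86% of all tested genes. They were Hoxd11 (limma adjusted p = 3.26e-05), Hoxd10 (0.00476), Hoxc10 (0.00564), Hoxc11 (0.00758), Hoxc6 (0.0264), Hoxc8 (0.0297), Hoxd9 (0.0342) and Hoxb8 (0.0413). The pair means of Hoxd11 spanned 3.20 on the log2 scale within SMA and 2.62 within control, while treated and untreated libraries of a pair differed by 0.38 at most. Hoxc11 entered the test through its high libraries, so its p is given as a description, and without it and Hoxa11 the count was 7 of 28. Hoxa10 and Hoxa11 did not pass (0.0762 and 0.103). For Hoxd10 the spans were 1.13 within SMA and 1.09 within control, and for Hoxc10 they were 1.16 and 0.32. Without SMA pair 1 the count was 3, without SMA pair 2 it was 3 and without control pair 2 it was 4, and Hoxd10 and Hoxd11 were called in each of these fits. With no filter on low values, which adds genes to the adjustment, Hoxc11 and Hoxd11 were the 2 called. The share of all tested genes called in these other fits is not given here. The listed locus of Hoxc5 overlaps those of Hoxc6, Hoxc8, Hoxc9 and Hoxc10, so reads in the shared stretches cannot be told apart with certainty.

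The pair with the lowest or highest value differed between genes. Among the 10 tested genes of groups 9 to 11, the pair mean was lowest in SMA pair 1 for 8, where 21.1% of all tested genes had their lowest pair. The exceptions were Hoxa9 and Hoxb9, which were lowest in SMA pair 3. Control pair 1 was highest for 6 of these 10 genes, against 23.1% of all tested genes, and SMA pair 2 for 3, against 8.35%. Those 3 were Hoxa11, Hoxc11 and Hoxd11. Hoxa11 and Hoxc11 entered the test through their high libraries, mostly of SMA pair 2, so the filter nearly fixed their highest pair. Both also count among the 8 lowest in SMA pair 1, so these counts are a description. In groups 4 to 8, control pair 1 was lowest for 7 of 14 genes, against 23.7% of all tested genes, and these were Hoxa5, Hoxa6, Hoxa7, Hoxc5, Hoxc6, Hoxc8 and Hoxd8. It was highest for 4 of these 14, the Hoxb genes Hoxb5, Hoxb6, Hoxb7 and Hoxb8, against 23.1%. The tested group 4 genes followed neither pattern. Hoxa4 and Hoxb4 were lowest in control pair 3 and Hoxc4 in SMA pair 1, and none of them was highest in control pair 1. Hoxc6, a brachial motoneuron gene, was at 31, 51.3 and 43.9 FPKM in treated and 30.9, 48.4 and 39.2 FPKM in untreated control libraries 1, 2 and 3, where pair 1 was below both others.

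Markers of other cell types moved with the pairs as well. The progenitor and astroglia markers summed to 1059, 495.0 and 883.7 FPKM in treated and 1259, 680.0 and 868.2 FPKM in untreated SMA libraries 1, 2 and 3. Within SMA, the pair with the highest sum was thus pair 1, and the pair with the lowest sum was pair 2. Pair 1 was also lowest for 8 of the 10 genes of groups 9 to 11. The sum of pair 1 rested mostly on Fabp7. That gene was at 660, 201 and 439 FPKM in treated and 854, 324 and 416 FPKM in untreated SMA libraries. Within SMA, Sox1 and Slc1a3 of the same list were highest in pair 3, and Olig2 and Gfap in pair 1. The neuron markers summed to 1086, 1003 and 858.1 FPKM in treated and 869.1, 748.9 and 797.4 FPKM in untreated SMA libraries, and to 1405, 1010 and 954.5 FPKM in treated and 1300.3, 950.0 and 894.7 FPKM in untreated control libraries, highest in pair 1 of both genotypes. Single neuron markers did not all follow their sum. Within SMA, Stmn2 and Tubb3 were highest in pair 1 in both treatments, and Syn1, Rbfox3 and Elavl4 in neither. The part of these marker differences in the Hox result was not tested.

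Between genotypes, Hoxa6 was the 1 Hox gene that passed the test, in the comparison averaged over treatments, and it was higher in SMA cultures. Hoxa6 (chr6:52205431-52208722, minus strand, ENSMUSG00000043219) is a group 6 gene of the cervical and thoracic cord. It was at 13.9, 13.3 and 17.4 FPKM in treated and 13, 13.6 and 15.5 FPKM in untreated SMA libraries, against 7.61, 10.6 and 10 FPKM in treated and 9.55, 11.3 and 11.4 FPKM in untreated control libraries. With and without R-Roscovitine, all 3 SMA libraries were above all 3 control libraries, which held for 1 of 30 tested Hox genes in this direction and for 2.96% of all tested genes.

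Averaged over treatments, Hoxa6 rose by 0.51 ± 0.11 on the log2 scale (estimate ± SE, limma adjusted p = 0.0295, n = 6 libraries each), where 4.77% of all tested genes were called and 2.98% were called higher. At an unadjusted p under 0.05 there were 13 of 30 Hox genes, against 23.2% of all. This fit counts the paired libraries as independent. With 1 mean per pair, Hoxa6 had a limma adjusted p of 0.19, with the pair as a random effect 0.0696 and with no filter on low values 0.0801. Leaving out 1 library or 1 pair in turn gave Hoxa6 an adjusted p of 0.0136 to 0.214. Leaving out 1 library or 1 pair in turn gave 0 to 6 called Hox genes: 0 without untreated control 2, treated control 1, untreated SMA 1 or 3, treated SMA 1 or 3, control pair 1 or 2, or SMA pair 1 or 3. Without treated SMA 2 there were 6, without SMA pair 2 there were 4, and without untreated control 1, untreated control 3 or control pair 3 there were 2. The share of all tested genes called in each of these fits is not given here. The counts are therefore not read as a result about the Hox genes. The promoter of Hoxa6 is shown from RefSeq on GRCm38.p6, with the CCAAT box in capitals on the opposite strand as ATTGG.
Hoxa6 promoter, chr6:52208623-52208922, minus strand, CCAAT box in capitals: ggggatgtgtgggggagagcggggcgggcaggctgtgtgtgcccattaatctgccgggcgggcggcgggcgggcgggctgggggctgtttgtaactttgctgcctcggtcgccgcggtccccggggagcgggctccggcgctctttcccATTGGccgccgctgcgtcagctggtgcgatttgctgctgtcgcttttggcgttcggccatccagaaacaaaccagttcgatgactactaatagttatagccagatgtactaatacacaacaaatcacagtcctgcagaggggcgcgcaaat

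The listed locus of Hoxa6 overlaps those of Hoxa3 and of the antisense gene Hoxaas3, whose symbol in the tables is 2700086A05Rik. The locus of Hoxaas3 also overlaps those of Hoxa4, Hoxa5 and Hoxa7. The strand setting of the counting is not given in the sources used here, so reads of a gene and its antisense partner cannot be told apart. Hoxaas3 was at 4.22, 3.03 and 4.297 FPKM in treated and 4.14, 2.46 and 4.62 FPKM in untreated SMA libraries, against 1.45, 2.87 and 1.98 FPKM in treated and 0.994, 1.94 and 2.35 FPKM in untreated control libraries. It also rose, by 0.74 ± 0.18 on the log2 scale (estimate ± SE, limma adjusted p = 0.0377, n = 6 libraries each), but not with 1 mean per pair (0.193) or with the pair as a random effect (0.0922). The progenitor and astroglia markers, given above, moved with genotype in the same comparison. Of 18, 11 were called higher in SMA and 0 lower, against 2.98% and 1.79% of all tested genes. Of the 14 tested motoneuron genes 0 were called higher and 1 lower. With 1 mean per pair 0 of these genes were called, and with the pair as a random effect 4 of the 18 and 0 of the 14. SMA pair 2, whose marker sum was the lowest of the SMA pairs, had 13.3 and 13.6 FPKM of Hoxa6, and the part of these markers in the Hoxa6 difference was not tested.

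No other Hox gene passed the test, and the next by p, averaged over treatments, were Hoxb6, Hoxb9, Hoxb8 and Hoxa7. Hoxa7, a thoracic gene next to Hoxa6, was at 78.2, 53.1 and 67.4 FPKM in treated and 68.3, 49.3 and 63.4 FPKM in untreated SMA libraries, against 37.2, 58.6 and 48.3 FPKM in treated and 45.3, 53.2 and 40.6 FPKM in untreated control libraries. The genotypes overlapped through SMA pair 2 and control pair 2. Its log2 difference was 0.44 ± 0.14 (limma adjusted p = 0.0912, averaged over treatments).

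Hoxb6, Hoxb8 and Hoxb9 of the Hoxb cluster had lower values in most SMA libraries, while Hoxb7, which lies between Hoxb6 and Hoxb8, had a log2 difference of 0.06 ± 0.14. Hoxb6 was at 28.1, 32.8 and 25 FPKM in treated and 22.9, 27.9 and 20.5 FPKM in untreated SMA libraries, against 41.8, 33.1 and 32.9 FPKM in treated and 47.2, 34.4 and 30.7 FPKM in untreated control libraries. Only treated SMA library 2 lay within the control range, and the log2 difference was -0.44 ± 0.12 (limma adjusted p = 0.0528). Hoxb9 was at 152, 215 and 129.8 FPKM in treated and 127, 148 and 113 FPKM in untreated SMA libraries, against 225, 179.6 and 228 FPKM in treated and 206, 153 and 192 FPKM in untreated control libraries. In FPKM its genotypes overlapped only through treated SMA library 2, at 215 FPKM. After scaling, treated SMA library 1 also lay within the control range. The log2 difference was -0.41 ± 0.12 (limma adjusted p = 0.0738).

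Hoxb8, which takes part in the thoracic and dorsal cord, was at 154, 178 and 127 FPKM in treated and 128, 139 and 119 FPKM in untreated SMA libraries, against 247, 172 and 184 FPKM in treated and 237, 150.1 and 169 FPKM in untreated control libraries. Its log2 difference was -0.41 ± 0.12 (limma adjusted p = 0.0738), and treated SMA libraries 1 and 2 lay within the control range. Hoxc8 ran the other way, at 148, 131 and 161 FPKM in treated and 155, 146 and 158 FPKM in untreated SMA libraries, against 96.9, 137 and 133 FPKM in treated and 82.4, 134 and 133 FPKM in untreated control libraries. Both libraries of control pair 1 were below the others, and the log2 difference was 0.38 ± 0.14 (limma adjusted p = 0.123).

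**Figure D3:**
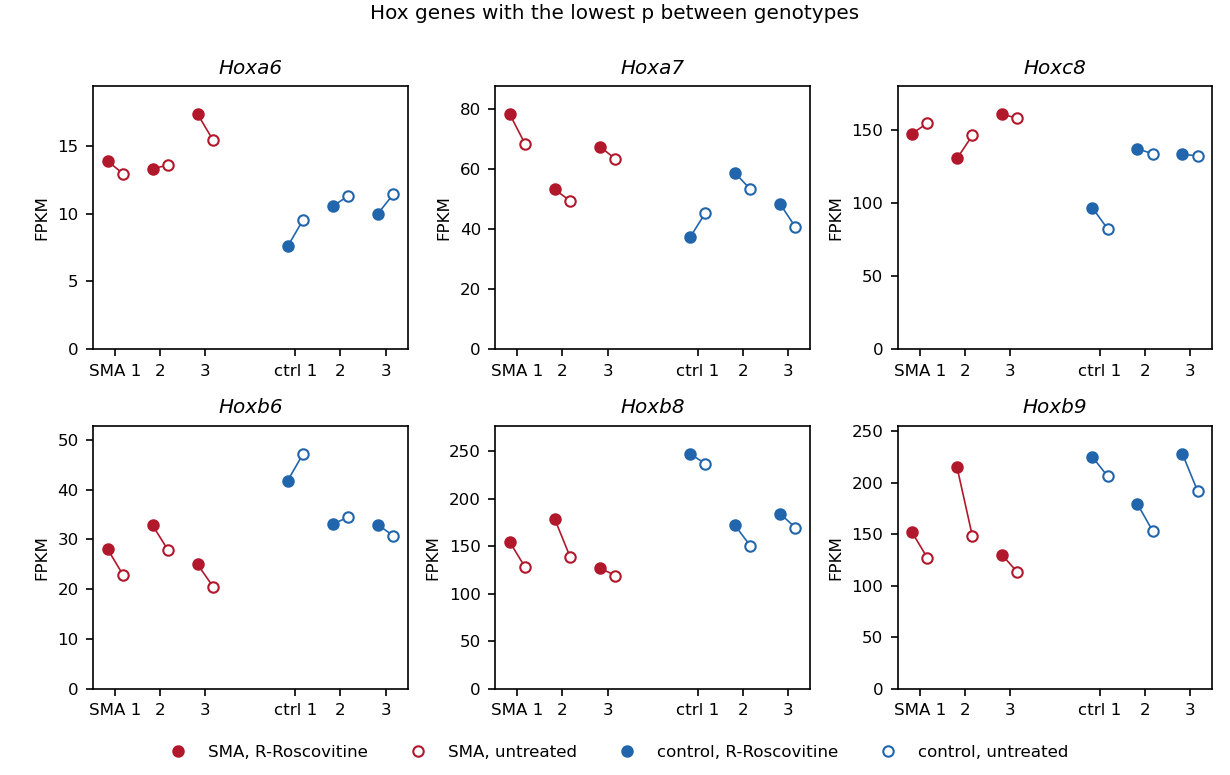
FPKM of Hoxa6, Hoxa7, Hoxc8, Hoxb6, Hoxb8 and Hoxb9 in each library, by genotype and replicate number, with treated (filled) and untreated (open) libraries of a pair joined by a line. SMA libraries lie above all control libraries for Hoxa6, and mostly below them for the Hoxb genes.

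Hoxb8 is a known target of the microRNA miR-196, which is encoded within the Hox clusters, as is miR-10. The mature sequences are shown from RefSeq on GRCm38.p6 with the seed, bases 2 to 8, in capitals, grouped by seed, because both families lie inside the clusters whose levels are described.
miR-10a-5p, seed ACCCUGU, chr11:96317186-96317208, plus strand: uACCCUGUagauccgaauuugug
miR-10b-5p, seed ACCCUGU, chr2:74726074-74726096, plus strand: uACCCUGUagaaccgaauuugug
miR-196a-5p, seed AGGUAGU, chr11:96265187-96265208, plus strand: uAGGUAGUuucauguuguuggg
miR-196b-5p, seed AGGUAGU, chr6:52230129-52230150, minus strand: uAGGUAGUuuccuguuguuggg

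Counted from the 5′ end, miR-10a and miR-10b differ by U12A, and miR-196a and miR-196b by A12C. The 3′ untranslated region of the annotated transcript Hoxb8-201 (GENCODE M21) holds a site with Watson-Crick pairs to 21 of the 22 bases of miR-196a-5p and 20 of those of miR-196b-5p. It lies at chr11:96284888-96284909 on the plus strand, and capitals mark the bases in such pairs with miR-196a-5p.
Hoxb8 site for miR-196a: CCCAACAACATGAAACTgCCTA

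The base in lower case lies opposite base 5 of the microRNA, within the seed, and can form a G:U wobble there, which was not counted as a pair. The mature microRNAs were not measured in these libraries. Of the microRNA hairpin genes in the clusters, Mir196a-2, Mir10b and Mir615 were listed at 0 in all 12 libraries. Mir10a reached 2.23 FPKM and Mir196a-1 reached 2.72 FPKM, both in untreated SMA library 1, Mir196b stayed below 1 FPKM in every library, and none of these hairpins was tested. Mir196a-2 encodes the same mature sequence as Mir196a-1 and lies in the Hoxc cluster.

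Within each treatment, no Hox gene passed the test between genotypes. In untreated cultures limma called 0 of 30 tested Hox genes, against 0.00666% of all tested genes, and 6 Hox genes had an unadjusted p under 0.05, against 14.1% of all. The lowest p belonged to Hoxb6, with a log2 difference of -0.58 ± 0.17 (limma adjusted p = 0.221), followed on that side by Hoxb9 at -0.46 ± 0.17 (0.283). On the higher side Hoxa6 had 0.39 ± 0.15 (limma adjusted p = 0.294) and Hoxc8 0.47 ± 0.19 (0.309). With R-Roscovitine, limma called 0 of 30, against 0.00666% of all tested genes, and 4 Hox genes had an unadjusted p under 0.05, against 12.9%. Hoxa6 differed by 0.63 ± 0.15 (limma adjusted p = 0.180) and Hoxb3 by 0.83 ± 0.22 (0.196), and on the lower side Hoxb8 by -0.37 ± 0.18 (0.3996) and Hoxb9 by -0.36 ± 0.17 (0.407).

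As lists, the clusters and paralogue groups were split around the other genes. Averaged over treatments, the median log2 difference was 0.01 over the 30 tested Hox genes and -0.01 over all tested genes, with 17 higher and 13 lower in SMA, against 48.3% of all tested genes higher. In groups 1 to 3 the median was 0.14 and in groups 4 to 8 it was 0.10, with 4 of 6 and 10 of 14 higher. In groups 9 to 11 it was -0.31, with 7 of 10 lower, among them Hoxd9 at -0.47 ± 0.20, Hoxc10 at -0.58 ± 0.22 and Hoxd10 at -0.61 ± 0.27, none of which passed the test. By cluster the median was 0.08 in Hoxa, -0.20 in Hoxb, 0.05 in Hoxc and -0.35 in Hoxd. Of the 10 genes of groups 9 to 11, 8 were lowest in SMA pair 1, and Hoxa9 and Hoxb9 in SMA pair 3, as above.

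**Figure D4:**
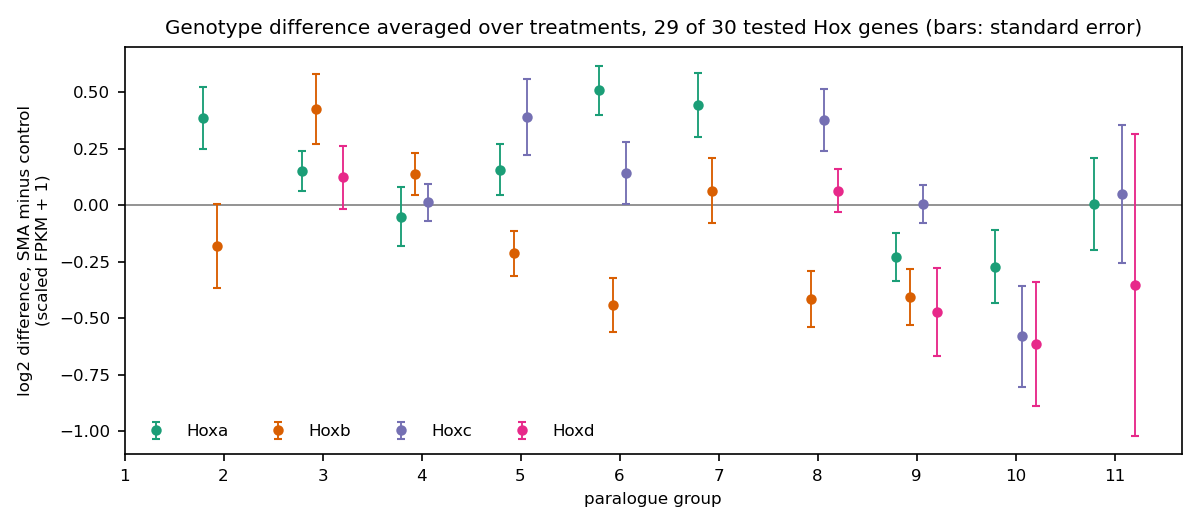
Log2 difference in scaled FPKM + 1, SMA minus control averaged over treatments, for 29 of the 30 tested Hox genes by paralogue group, with cluster in color and the standard error as bars. Hoxa6 stands highest at 0.51 and Hoxd10 lowest at -0.61, and the bar of Hoxd11 is the widest.

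No Hox gene passed the test between treated and untreated cultures. Limma called 0 of 30 tested Hox genes in SMA cultures, in control cultures and averaged over genotypes, where the share of all tested genes called was 0% as well. At an unadjusted p under 0.05 there were 0 Hox genes in SMA, 0 in control and 1 averaged over genotypes, against 2.42%, 1.27% and 1.64% of all tested genes. With the pair as a block, these counts were 4, 2 and 7, against 7.34%, 3.63% and 5.98% of all tested genes, and 0 Hox genes were called at an adjusted p under 0.05. The 1 gene without the block was Hoxb9, with a log2 difference of 0.28 ± 0.12 between treated and untreated cultures (limma adjusted p = 0.9999 over all genes), and 0.33 ± 0.17 in SMA cultures alone.

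Hoxb9 was higher with R-Roscovitine in each of the 6 pairs, as the libraries given above show. So were Hoxb5, Hoxb7, Hoxb8, Hoxc10 and Hoxd11, which makes 6 of 30 tested Hox genes, against 2.52% of all tested genes. No Hox gene was lower in 6 of 6 pairs, against 1.98% of all tested genes. This count was made after the values were seen and has no test, and neighbouring genes share their libraries. Averaged over genotypes, 10 of 10 neuron markers were also higher with R-Roscovitine, with a median log2 difference of 0.21. Of 18 progenitor and astroglia markers 1 was higher, with a median of -0.11. In both lists 0 were called, and their part in the Hox count was not tested. Hoxb5, a cervical gene, was at 9.33, 13.7 and 9.73 FPKM in treated and 9.19, 10.1 and 8.53 FPKM in untreated SMA libraries, and at 13.7, 12.3 and 11.8 FPKM in treated and 12.1, 11.2 and 11 FPKM in untreated control libraries. The 2 treatments overlapped in SMA cultures, and in control cultures treated library 3 lay below untreated library 1. Its log2 difference averaged over genotypes was 0.18 ± 0.10, and the median over the 8 tested Hoxb genes was 0.15, against 0.01 over all tested genes.

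**Figure D5:**
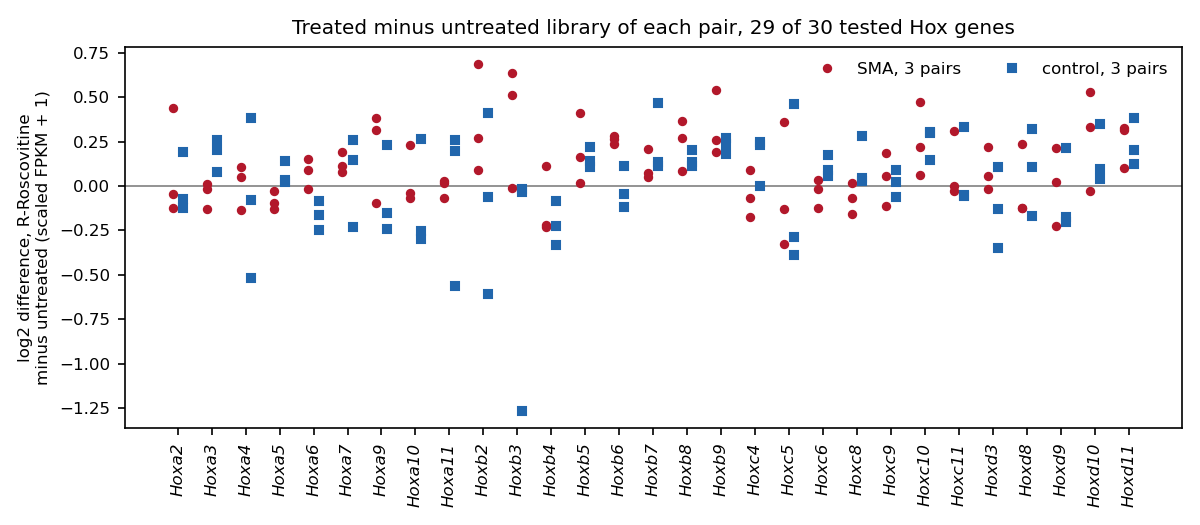
Log2 difference in scaled FPKM + 1, R-Roscovitine minus untreated, in each of the 3 SMA pairs (circles) and the 3 control pairs (squares) for 29 of the 30 tested Hox genes. All 6 points lie above 0 for Hoxb5, Hoxb7, Hoxb8, Hoxb9, Hoxc10 and Hoxd11, and the lowest point is Hoxb3 in control pair 1.

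On the lower side of the treatment comparison stood Hoxb4. This gene, active in the hindbrain and cervical cord, was at 3.73, 3.85 and 4.15 FPKM in treated and 4.49, 4.71 and 3.75 FPKM in untreated SMA libraries, and at 3.42, 3.43 and 3.19 FPKM in treated and 4.74, 3.72 and 3.95 FPKM in untreated control libraries. All 3 treated control libraries were below the untreated ones, as for 2.31% of all tested genes, and the log2 difference in control cultures was -0.21 ± 0.13.

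Among control cultures alone, the lowest p on the higher side belonged to Hoxa3 and Hoxc4. Hoxa3, which patterns the caudal hindbrain, was at 7.48, 9.01 and 9.61 FPKM in treated and 8.26, 8.98 and 9.66 FPKM in untreated SMA libraries, and at 8.63, 8.31 and 8.56 FPKM in treated and 8.405, 7.12 and 7.06 FPKM in untreated control libraries. In FPKM, its treated control libraries lay above untreated control libraries 2 and 3, and untreated control library 1 lay within their range. After scaling, all 3 treated control libraries were above the untreated ones, as for 1.99% of all tested genes. Hoxc4, a cervical gene, was at 9.31, 11.6 and 10.1 FPKM in treated and 10.6, 10.9 and 10.6 FPKM in untreated SMA libraries, and at 11.9, 10.2 and 11.5 FPKM in treated and 10.2, 10.2 and 9.82 FPKM in untreated control libraries. Treated control libraries 1 and 3 were above all untreated control libraries, and treated control library 2 lay among them. The log2 differences in control cultures were 0.18 ± 0.12 for Hoxa3 and 0.16 ± 0.12 for Hoxc4.

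No Hox gene passed the test for a response to R-Roscovitine that differed between genotypes. Limma called 0 of 30 tested Hox genes for the interaction, against 0% of all tested genes, and 1 had an unadjusted p under 0.05, against 1.93%. It was Hoxb3, a hindbrain and cervical gene, at 9.91, 8.42 and 7.79 FPKM in treated and 6.03, 5.64 and 7.81 FPKM in untreated SMA libraries, and at 3.36, 5.37 and 4.92 FPKM in treated and 9.81, 5.47 and 5.13 FPKM in untreated control libraries. Untreated control library 1 stood apart at 9.81 FPKM from its pair at 3.36 FPKM. The interaction was 0.82 ± 0.31 on the log2 scale (limma adjusted p = 0.9999).

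The other genes with the lowest p had smaller interactions. Hoxa9, a gene of the thoracic and lumbar cord, was at 23.9, 22 and 24.6 FPKM in treated and 19, 23.7 and 18.5 FPKM in untreated SMA libraries, and at 27.7, 28.5 and 21.1 FPKM in treated and 32.1, 24.3 and 25.5 FPKM in untreated control libraries. Its interaction was 0.26 ± 0.21, and those of Hoxa3 and Hoxc4 were -0.23 ± 0.18 and -0.21 ± 0.16. Over the 30 tested Hox genes 22 interactions were above 0, against 51.5% of all tested genes, and their median was 0.05, against 0.01 over all.

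Genes around the Hox pathway were read from lists, in the genotype comparison averaged over treatments. With 1 mean per pair, which called 0.00666% of all tested genes, none of the calls in these lists or in the marker lists held, at adjusted p of 0.165 to 0.204. With the pair as a random effect, which called 0.413%, the calls that held were Kcnj10, Sox1, Olig2 and Slc1a3, all progenitor and astroglia markers. The fit that counts paired libraries as independent called 2.98% of all tested genes higher in SMA and 1.79% lower. Of the 11 TALE cofactors, all tested, it called 2 higher and 0 lower. Meis2 was at 132, 116 and 162 FPKM in treated and 122, 111 and 148 FPKM in untreated SMA libraries, against 101, 73.8 and 101 FPKM in treated and 121, 80.5 and 90.8 FPKM in untreated control libraries. It rose by 0.51 ± 0.13 on the log2 scale (limma adjusted p = 0.0406), with control library 1 within the SMA range when untreated. Tgif2, a repressor of the TALE class, was at 8.73, 8.82 and 12 FPKM in treated and 9.81, 9.56 and 12.5 FPKM in untreated SMA libraries, against 4.06, 8.66 and 7.05 FPKM in treated and 6.22, 6.82 and 7.45 FPKM in untreated control libraries. It rose by 0.58 ± 0.15 (limma adjusted p = 0.0480), and in FPKM every SMA library was above every control library. After scaling, treated control library 2 was slightly above treated SMA library 2.

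Of the 24 Polycomb and Trithorax genes, which silence or keep active the Hox clusters, 0 were called higher and 1 lower. Of all tested genes 2.98% were called higher and 1.79% lower. Bptf, the largest subunit of the NURF remodelling complex, was at 28.6, 35.2 and 30.6 FPKM in treated and 24, 29.5 and 27.1 FPKM in untreated SMA libraries, against 34.3, 38 and 37.7 FPKM in treated and 37.5, 41 and 40.5 FPKM in untreated control libraries. It fell by 0.35 on the log2 scale, with a standard error of 0.08 (limma adjusted p = 0.0346), and treated SMA library 2 lay within the control range. The median over the list was -0.01, as over all tested genes.

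Of 19 genes of the upstream signals, which are retinoic acid, Gdf11 and Cdx, 12 were tested and 0 were called by limma. The lowest p belonged to Aldh1a2, which makes retinoic acid in limb-level motoneurons and in meninges, with -1.37 ± 0.53 (limma adjusted p = 0.148). It was at 0.789, 1.14 and 0.566 FPKM in treated and 1.37, 1.37 and 0.699 FPKM in untreated SMA libraries, against 2.09, 18 and 0.795 FPKM in treated and 3.499, 15.2 and 1.33 FPKM in untreated control libraries, so that control pair 2 alone stood high. Of 5 geminin and partner genes 0 were called, with the lowest p in Ep300 at -0.17 ± 0.10 (limma adjusted p = 0.316) and Hmgb1 at 0.14 ± 0.12 (0.534).

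Of 32 noncoding genes and neighbours of the clusters, 29 had a line, 16 were tested and Hoxaas3 was the 1 called. Of all tested genes 4.77% were called. Hoxb5os, an antisense gene over Hoxb5 and Hoxb6, was at 27, 18.2 and 33.6 FPKM in treated and 19, 17.1 and 30.7 FPKM in untreated SMA libraries, against 10.3, 17 and 14.1 FPKM in treated and 21.7, 15 and 10.2 FPKM in untreated control libraries. Its log2 difference was 0.71 ± 0.21 (limma adjusted p = 0.0693), with the opposite sign to Hoxb5 and Hoxb6. Hotairm1, listed as Gm15051, was at 13.2, 39.1 and 34.6 FPKM in treated and 19.1, 33 and 30.4 FPKM in untreated control libraries, with pair 1 lowest as for Hoxa5, Hoxa6 and Hoxa7. Hotair, a noncoding gene of the posterior Hoxc cluster, was above 0 in both libraries of SMA pair 2 and of control pair 1, the pairs high in Hoxc11. It was at 0.159 FPKM treated and 0.297 FPKM untreated in SMA pair 2, and at 0.230 FPKM treated and 0.243 FPKM untreated in control pair 1. Elsewhere it was above 0 only in untreated control library 2, at 0.0517 FPKM. Hotairm1 and Hotair were singled out after their values were seen.

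Among the markers of cell types, in the same comparison, the progenitor and astroglia genes with the lowest p were Kcnj10, an astroglial potassium channel, and Sox1, a progenitor factor, with Kcnj10 at 2.52 ± 0.33 and Sox1 at 0.86 ± 0.14 (limma adjusted p = 0.00803 and 0.0173). Of the 14 motoneuron genes tested, Chodl fell by 1.08 in log2 units (limma adjusted p = 0.0320). Of the 10 neuron genes Syn1 fell by 0.71 (limma adjusted p = 0.0226). Of the fibroblast, Schwann cell, sensory neuron, skeletal muscle and fore- and midbrain genes limma called 0 of 7, 0 of 4, 0 of 4, 0 of 2 and 0 of 1 tested. Fibroblast genes still differed between pairs, in both directions. Postn was at 5.80, 0.981 and 0.269 FPKM in treated and 14.9, 1.39 and 0.313 FPKM in untreated SMA libraries. Fn1 was lowest in SMA pair 1, and Col1a1 was highest in control pair 2. These genes were singled out after their values were seen. The fore- and midbrain markers summed to 3.96 to 6.08 FPKM in SMA libraries and 3.17 to 6.19 FPKM in control libraries, and Lhx2 was the only one of the 8 to be tested. Lhx2 made up most of these sums, at 2.60 to 5.87 FPKM, and the other 7 were below 1 FPKM in every library. The sums thus rest on 1 gene and do not read out fore- or midbrain cells.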

How the data were processed

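Per the labels' protocols, RNA from the cultures was made into mRNA libraries with a Lexogen kit. Per the submitters' processing notes, Cufflinks 2.2.1, FastQC 0.10.1 and Trim Galore 0.4.0 were used on the GRCm38 build. No source used here gives the alignment or strand settings. The values the authors deposited are FPKM, normalised for length and depth, each with an interval and a status. The tables hold no counts.

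FPKM of identifiers on several lines were summed, and libraries were scaled by the median of ratios. Genes at 1 FPKM or more in at least 3 of 12 libraries, small RNA types left out, were tested with limma 3.58.1 (R 4.3.3) on log2(scaled FPKM + 1). This scale understates fold changes of low genes. The fit had 4 group means, and p-values were two-sided and Benjamini-Hochberg adjusted over all 15012 tested genes. The small RNA types were defined after a first fit, which had also left out misc_RNA features (14982 genes). Standard errors are limma's.

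Each library's value is given for the highest member of each cluster, the 2 with the lowest p in each direction of each of 7 comparisons, groups 10 and 11 and any member called. Other lists give the 2 with the lowest p and any called. Some genes that these rules name are not reported here, though counts include them. Members and lists were chosen with earlier results of these data known. The replicate numbers were taken to pair treated and untreated libraries of a genotype, since every such pair correlated above 0.1 over all tested genes (0.24 to 0.59). Unpaired libraries of different genotypes reached 0.32. The scripts were tested on simulated data.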

Additional observations from a re-analysis of the deposited data

How the results depend on the processing

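The counts of Hox genes called between treatments and for the interaction were 0 under every alternative tried, the replicate block by pair included. The replicate number as a block gave 1 Hox gene between genotypes in untreated cultures (Hoxb6), 1 with R-Roscovitine (Hoxa6) and 3 averaged over treatments, where same-numbered libraries of different genotypes were not paired. Averaged over treatments, the count was 2 with no scaling between libraries, 4 with library weights and 0 with no filter on low values, with pair means or with the pair as a random effect, the last added after the data were seen. Leaving out 1 library or 1 pair gave 0 to 6. With the pair as a block, no call between treatments or for the interaction changed. The F test between pairs called 2 genes with no filter (Hoxc11 and Hoxd11), and 3 to 11 without a pair. The cause of these shifts was not tested, except that testing without the filter adds genes, 26181 in all. The share of all tested genes called was not set beside these counts here. They are therefore not read as a result about the Hox genes. Leaving out misc_RNA features, added after the data were seen, left every count of Hox genes as it was. The half-width of the deposited interval was 37.0% of the value for Hoxd11 in the median library, against 2.34% for Hoxc8.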
